A study of Homo sapiens with 4 samples.

Results

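The secreted signalling genes CXCL1, CXCL2, CXCL3, CXCL5, CXCL6, CXCL8, IL1A, IL1B, IL6 and LIF were followed through 3 histone marks in MCF10A, a human line of mammary epithelium that is immortal but does not form tumours. They were taken by name, and are 10 of the 19974 protein-coding genes analysed on chromosomes 1 to 22 and X. The marks, mapped by chromatin immunoprecipitation and sequencing (ChIP-seq), were H3K4me3, which sits at active and poised promoters, H3K79me2, which the enzyme DOT1L lays over the first part of transcribed genes, and H3K27me3, the mark of Polycomb repression. Each mark had 1 library, all from the same line, whose mammary epithelial growth medium held cholera toxin, an agent that raises cyclic AMP, at 100 ng/ml. The input DNA library, which completes the 4, has no peak list used here. No other genotype or treatment is labelled, so the comparisons are between marks and between genes. With no replicates a difference has no replicate check, and peak lists do not give the read depth.

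CXCL1, CXCL2, CXCL3, CXCL5, CXCL6 and CXCL8 are CXC chemokines that attract neutrophils through the receptors CXCR1 and CXCR2. IL1A and IL1B are the agonists of the interleukin-1 receptor, and IL6 and LIF signal through receptors that share the IL6ST (gp130) chain. In epithelium these genes are known to be induced by damage, microbial products and interleukin-1 itself, largely through NF-κB, with AP-1 and C/EBP factors at several of them.

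The sequence upstream of the start sites is shown first, because the 6 chemokine promoters share letters while the marks over them differ. Each line gives the 150 bases before the RefSeq start site (GRCh38.p14), 5′ to 3′ on the strand of the gene. Capitals in the CXCL lines mark GGAATTTCC, a run of letters of the NF-κB type that was chosen after the promoters were seen.
CXCL8, chr4:73740419-73740568, plus strand: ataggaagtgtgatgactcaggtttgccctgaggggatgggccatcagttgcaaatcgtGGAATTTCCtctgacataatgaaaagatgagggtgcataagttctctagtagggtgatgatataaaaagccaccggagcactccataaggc
CXCL6, chr4:73836528-73836677, plus strand: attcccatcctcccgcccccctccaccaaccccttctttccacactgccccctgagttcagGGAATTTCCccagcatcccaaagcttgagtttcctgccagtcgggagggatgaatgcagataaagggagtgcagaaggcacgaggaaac
CXCL1, chr4:73869243-73869392, plus strand: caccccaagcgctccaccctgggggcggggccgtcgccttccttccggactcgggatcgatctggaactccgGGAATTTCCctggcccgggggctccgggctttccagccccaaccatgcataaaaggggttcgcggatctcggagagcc
CXCL5, chr4:73998678-73998827, minus strand: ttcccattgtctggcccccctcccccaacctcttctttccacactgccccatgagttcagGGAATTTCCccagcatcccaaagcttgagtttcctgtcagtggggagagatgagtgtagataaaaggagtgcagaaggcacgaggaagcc
CXCL3, chr4:74038690-74038839, minus strand: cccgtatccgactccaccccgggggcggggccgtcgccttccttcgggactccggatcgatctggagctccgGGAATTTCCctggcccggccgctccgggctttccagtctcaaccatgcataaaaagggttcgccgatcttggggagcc
CXCL2, chr4:74099196-74099345, minus strand: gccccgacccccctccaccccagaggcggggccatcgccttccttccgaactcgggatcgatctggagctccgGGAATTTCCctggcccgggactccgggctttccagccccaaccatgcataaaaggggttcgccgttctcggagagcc

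All 6 CXCL promoters held GGAATTTCC, which was found on either strand in 162 of the 35116 RefSeq promoter windows, 0.461%. These windows run from 250 bases before to 50 after a start site, 300 bases in all. The run lay from −78 to −70 in CXCL1 and CXCL3, from −77 to −69 in CXCL2, from −90 to −82 in CXCL5, from −89 to −81 in CXCL6 and from −91 to −83 in CXCL8. In CXCL1, CXCL2, CXCL3, CXCL5 and CXCL6 it was part of a match to the NF-κB consensus, which was found in 5.91% of all windows and not in that of CXCL8. Over the aligned bases of the windows, CXCL1 was 90.2% identical to CXCL2 and 87% identical to CXCL3, and CXCL5 was 84.2% identical to CXCL6. H3K4me3 peaks covered 100% of the windows of CXCL1, CXCL2, CXCL3 and CXCL8 and 0% of those of CXCL5 and CXCL6. The same letters were thus present at marked and at unmarked chemokine promoters.

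IL6 and IL1A are shown for other motifs, with capitals on the NF-κB consensus match of IL6 and on the AP-1 match TGANTCA of IL1A.
IL6, chr7:22727050-22727199, plus strand: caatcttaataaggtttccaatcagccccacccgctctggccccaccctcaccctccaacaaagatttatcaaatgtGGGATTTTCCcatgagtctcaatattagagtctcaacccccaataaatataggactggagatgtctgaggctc
IL1A, chr2:112784494-112784643, minus strand: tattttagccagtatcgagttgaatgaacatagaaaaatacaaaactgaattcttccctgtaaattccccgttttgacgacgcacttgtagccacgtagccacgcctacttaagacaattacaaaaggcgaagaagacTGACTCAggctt

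The IL6 match lay from −73 to −64, and the IL6 window also held the C/EBP letters TTGNNCAA, found in 5.55% of windows. TGANTCA was found in 7.71% of windows and matched in IL1A and CXCL8, in IL1A from −12 to −6 and from 38 to 44 and in CXCL8 from −137 to −131. TATAAA, the TATA box letters of 11.5% of windows, matched in CXCL8 from −31 to −26 and in IL1A from −239 to −234. IL1B matched none of the motifs searched. The windows differed in CpG content, with 24 CpG in CXCL3, 22 each in CXCL1 and CXCL2, 9 in CXCL5, 8 each in CXCL6 and IL1A, 7 in IL6, 4 in CXCL8 and 2 in IL1B, against a median of 14. Above that median, the highest H3K4me3 folds at a record end were 19.2 at CXCL3, 15.9 at CXCL2 and 11.1 at CXCL1. Below it they were 16.3 at IL1A, 6.81 at IL6, 6.58 at CXCL8 and 3.64 at IL1B, with no peak at CXCL5 or CXCL6. A relation between fold and CpG content was not tested. A match is a description of letters and shows no binding.

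For H3K4me3 and H3K27me3, a call needed 25% or more of the bases from 1000 bp outside to 1000 bp inside an end of the gene record to lie in peaks. For H3K79me2 the same 25% applied to the first 5000 bp of the record from an end, or to the whole record where it is shorter. H3K4me3 was called at 8 of the 10 genes, against 67.9% of all protein-coding genes, and at all but CXCL5 and CXCL6. H3K79me2 was called at 7 of the 10, against 50.9%, the same genes without IL6. H3K27me3 was called at 0 of the 10, against 9.1%, and with 10 genes 0 is near that background. The records are short, from 1916 bp (CXCL1) to 10569 bp (IL1A), and among the 4685 genes in that range of length 59.7% had H3K4me3, 40.7% had H3K79me2 and 10.2% had H3K27me3. H3K79me2 rested on weak peaks. Counting peaks with q of 0.05 or below, it remained at 2 of the 10, CXCL3 and IL1A. The shares beside this were 43.3% of all genes and 34% of those in that range of length. H3K4me3 remained at 8 of the 10, against 66.3% of all genes. At −log10 q of 5 or more, and separately at a fold of 5 or more, H3K79me2 was at 0 of the 10, against 12.6% and 3.56% of all genes.

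**Figure D1:**
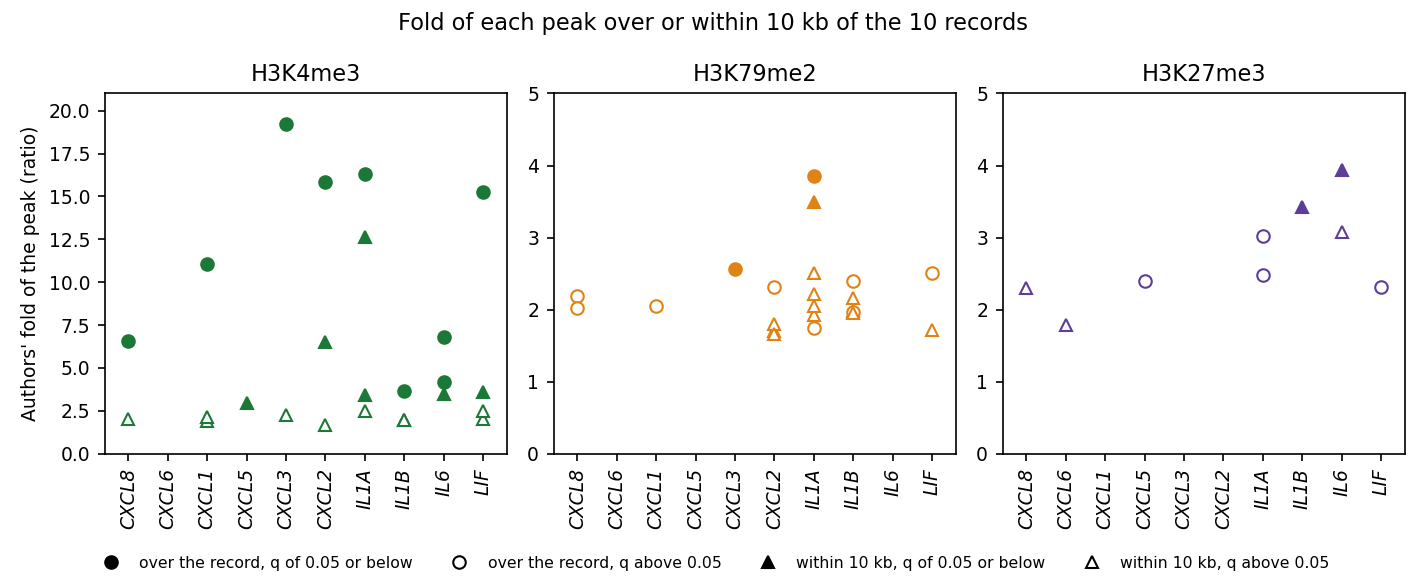
Each point is 1 peak over a record (circle) or within 10 kb of it (triangle), with the authors' fold (a ratio over the caller's background) on the y axis and the gene on the x axis, filled where q is 0.05 or below. H3K4me3 reached 19.2-fold at CXCL3, H3K79me2 stayed at or under 3.86-fold, and the H3K27me3 points are few.

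On chromosome 4 the chemokine genes follow each other in the order CXCL8, CXCL6, CXCL1, CXCL5, CXCL3, CXCL2, with the platelet chemokine genes PF4V1, PF4 and PPBP among them. The first 3 of the 6 are on the plus strand and the last 3 on the minus strand. Read along this order, H3K4me3 was present, absent, present, absent, present and present. From 10 kb before CXCL8 to 10 kb after CXCL2, chr4:73730569-74109195, H3K4me3 peaks covered 28667 bp or 7.57% of 378627 bp, against 3.36% of chromosomes 1 to 22 and X from their first to their last peak. H3K79me2 covered 8507 bp or 2.25% against 10.6%, and H3K27me3 covered 1756 bp or 0.464% against 3.66%. Of the covered bases, 15204 of H3K4me3 and 7319 of H3K79me2 lay over the 6 CXCL records and 1000 bp around them.

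**Figure D2:**
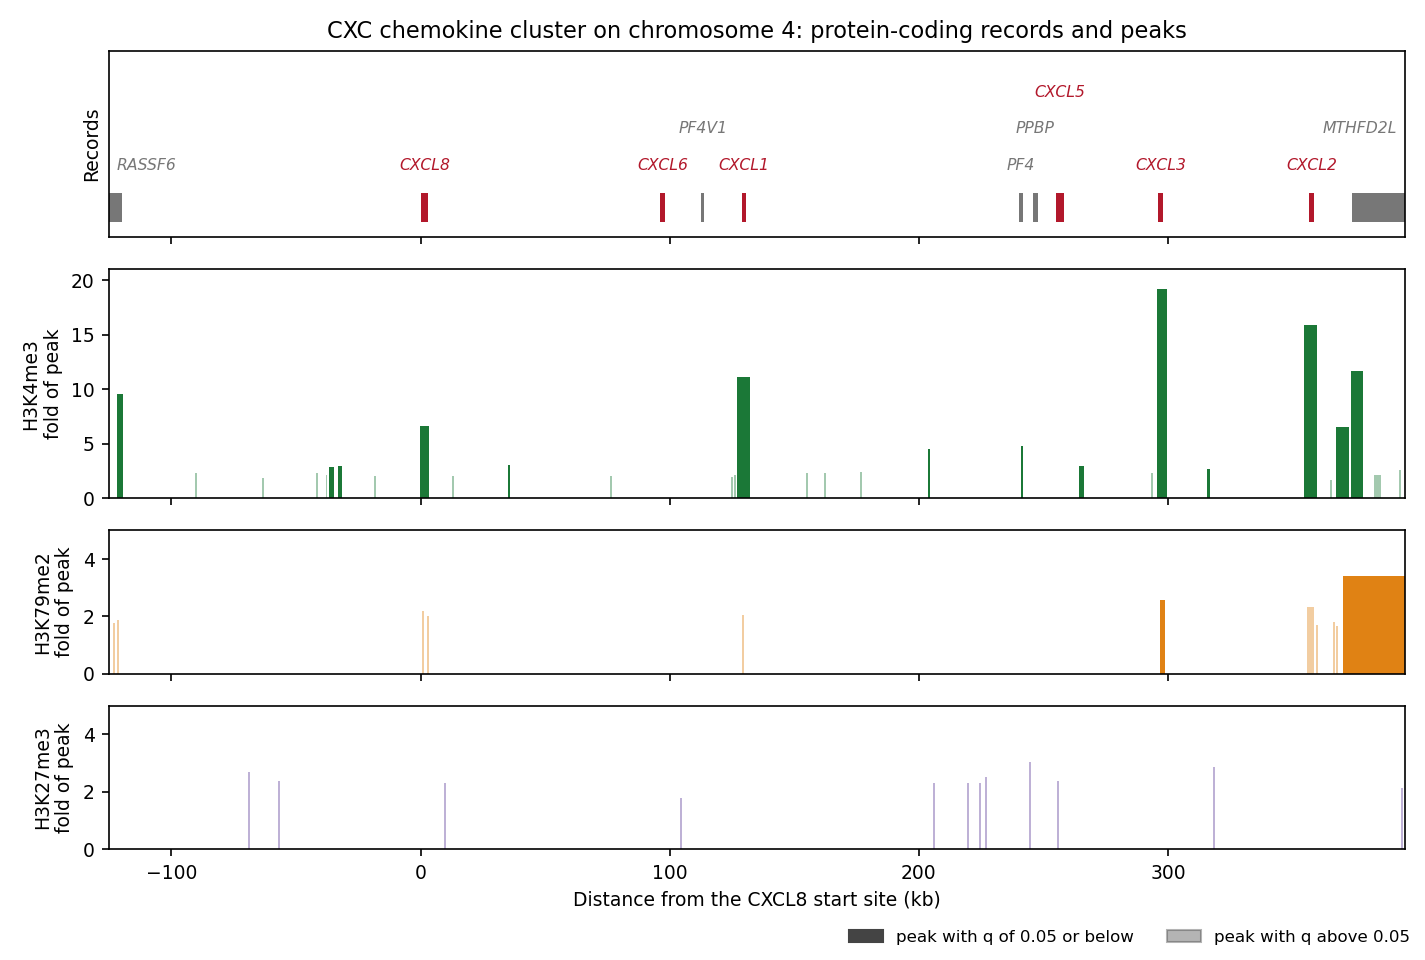
The x axis is the distance from the CXCL8 start site in kb; the top track shows protein-coding records (the 6 chemokine genes in red), and the bars below are peaks with the authors' fold as height, paler where q is above 0.05. Very narrow records and peaks are widened to stay visible; H3K4me3 bars of 6.58, 11.1, 19.2 and 15.9-fold stand over CXCL8, CXCL1, CXCL3 and CXCL2, and none over CXCL6 or CXCL5.

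CXCL8, the gene of interleukin-8, lay wholly under 1 H3K4me3 peak of 3555 bp and 6.58-fold, chr4:73740191-73743745. The peak began 378 bp before the start site and ended 3176 bp after it. Its fold was higher than that of 9.4% of the genes called for H3K4me3, so CXCL8 was among the weaker marked genes. H3K79me2 had a peak of 1121 bp and 2.19-fold inside it and one of 796 bp and 2.02-fold that ran past its downstream end, neither with q of 0.05 or below. The first of these began 436 bp after the start site. Upstream, in the 119937 bp between RASSF6 and CXCL8, the long non-coding RNA record INKILN carried H3K4me3 peaks of 2146 bp (2.89-fold) and 1313 bp (2.95-fold) with q of 0.05 or below. No H3K79me2 peak was listed in that stretch.

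CXCL6, whose product is also called GCP-2, had no H3K4me3 or H3K79me2 peak within 10 kb. The nearest H3K4me3 peak was 19401 bp from its record and the nearest H3K79me2 peak 30910 bp. The platelet variant gene PF4V1, next along the cluster, had no peak of any mark over its record. From CXCL6 to the end of PF4V1 the H3K27me3 list held 1 peak, of 1.79-fold, so the stretch carried almost none of the marks.

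CXCL1, first known as melanoma growth stimulating activity, lay wholly under an H3K4me3 peak of 5406 bp and 11.1-fold, chr4:73867546-73872951. It reached 1847 bp upstream and 3558 bp downstream of the start site, past the record on either side. Peaks of 508 bp (1.91-fold) and 365 bp (2.12-fold) lay farther upstream, with q above 0.05. H3K79me2 was a single peak of 795 bp and 2.05-fold over 41.5% of the record, higher in fold than 1.02% of the genes called for that mark. CXCL1P1, a pseudogene related to CXCL1, had an H3K4me3 peak of 903 bp and 4.55-fold. The handling of reads that fit several such copies is unstated in the sources used here, so values of these related genes carry that uncertainty.

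CXCL5, the gene of ENA-78, had neither active mark over its record. The nearest H3K4me3 peak, of 2037 bp and 2.98-fold, lay 6095 bp upstream inside the long non-coding RNA record LOC124900715. The nearest H3K79me2 peak was 38559 bp from the record. An H3K27me3 peak of 178 bp and 2.39-fold (q above 0.05) lay near the far end of the record and covered 8.9% of that window, under the 25% of a call. Of the platelet genes beside it, PF4 had an H3K4me3 peak of 764 bp and 4.75-fold at an end, and PPBP had none.

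CXCL3, whose product is also called GRO-gamma, had the highest fold of the 10 genes. Its H3K4me3 peak of 3926 bp and 19.2-fold, chr4:74036113-74040038, covered the whole record and was higher than that of 77.5% of genes called. An H3K79me2 peak of 1893 bp and 2.56-fold, with −log10 q of 1.39, ran from 439 bp upstream of the start site to 1453 bp downstream. In fold this peak was above 14.8% of the genes called for H3K79me2, so the marks stood at different ranks among the genes called for each. Among all peaks of its own list, the H3K4me3 peak was above 96% in fold and the H3K79me2 peak above 86.1%. The non-coding record LOC105377275 starts beside CXCL3 on the other strand, and the peaks overlapped it too, so they cannot be assigned to one of these records.

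CXCL2, whose product is also called GRO-beta, lay wholly under an H3K4me3 peak of 5055 bp and 15.9-fold, chr4:74095307-74100361. H3K79me2 covered 94.3% of the record, from a peak of 2621 bp and 2.31-fold with −log10 q of 1.04, a q above 0.05. Upstream a further H3K4me3 peak of 5033 bp and 6.53-fold, chr4:74108154-74113186, lay between CXCL2 and MTHFD2L, a mitochondrial folate enzyme gene. Over MTHFD2L itself H3K79me2 peaks covered 49.8% of 188540 bp, up to 3.42-fold. CXCL2 is thus the chemokine gene nearest to a long H3K79me2 stretch, with weaker peaks of 1.67- to 1.8-fold in the gap. The records of CXCL1, CXCL2, CXCL3 and CXCL8 were each covered whole by H3K4me3, as were 356 of the 2020 protein-coding records of at most 3148 bp, 17.6%.

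The interleukin-1 genes lie next to each other on chromosome 2 and differed. IL1A, the gene of the alpha form, had an H3K4me3 peak of 8542 bp and 16.3-fold, chr2:112777012-112785553, wider than 99.3% of the list. It ran from 1060 bp upstream to 7481 bp downstream of the start site and covered 70.8% of the record. H3K79me2 lay over the same start in a peak of 8548 bp and 3.86-fold, chr2:112778460-112787007, with −log10 q of 4.31. This was the highest H3K79me2 fold of a peak over any of the 10 records, above that of 64.4% of the genes called. Toward the neighbouring gene CKAP2L, a mitotic spindle gene, lay an H3K4me3 peak of 12.7-fold and an H3K79me2 peak of 19477 bp and 3.5-fold, which reached the end of the CKAP2L record. H3K27me3 peaks of 165 bp (2.48-fold) and 166 bp (3.03-fold) within the IL1A record had q above 0.05.

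IL1B, the gene of the secreted agonist that is processed by the inflammasome, had the weakest H3K4me3 of the 8 marked genes. Its peak of 3370 bp was 3.64-fold, chr2:112833981-112837350, higher than 4.77% of the genes called, and covered 78.6% of the window at the start site. H3K79me2 peaks of 1194 bp (1.96-fold) and 922 bp (2.4-fold) lay downstream of the start with q above 0.05. An H3K27me3 peak of 168 bp and 3.42-fold, with −log10 q of 1.57, lay 2120 bp upstream of the record. IL1B was the gene that lost its H3K4me3 call at −log10 q of 5 or more, where 7 of the 10 genes against 63.7% of all genes had one, and likewise at a fold of 5 or more, with 7 against 62.8%.

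IL6, the gene of interleukin-6, carried H3K4me3 without H3K79me2. The peak over its start site was 2963 bp and 6.81-fold, chr7:22726064-22729026, and reached 1136 bp upstream and 1826 bp downstream. Another of 947 bp and 4.21-fold lay near the far end of the record, and one of 1579 bp and 3.49-fold lay 8082 bp upstream of the start. All these had q of 0.05 or below. The nearest H3K79me2 peak was 22519 bp from the record. H3K4me3 without a call for either other mark was found at 14.6% of all genes, while 72.7% of the genes called for H3K4me3 were also called for H3K79me2. The antisense record IL6-AS1 overlaps the start of IL6 and shares its peak. H3K27me3 peaks of 180 bp (3.93-fold, −log10 q of 2.36) and 193 bp (3.08-fold) lay beyond the far end, the nearer 6071 bp away.

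LIF, the gene of leukaemia inhibitory factor, lies on chromosome 22 and had H3K4me3 of 4320 bp and 15.2-fold at the high-coordinate end of its record, chr22:30244508-30248827. That peak covered 100% of the window there and 0% at the other end, and was higher than that of 42% of genes called. H3K79me2 of 1874 bp and 2.5-fold lay inward of the same end and covered 37.5% of the inward window. Its −log10 q of 1.28 fell just short of a q of 0.05. The antisense record LIF-AS2 overlaps this end. An H3K27me3 peak of 166 bp and 2.31-fold lay inside the record.

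**Figure D3:**
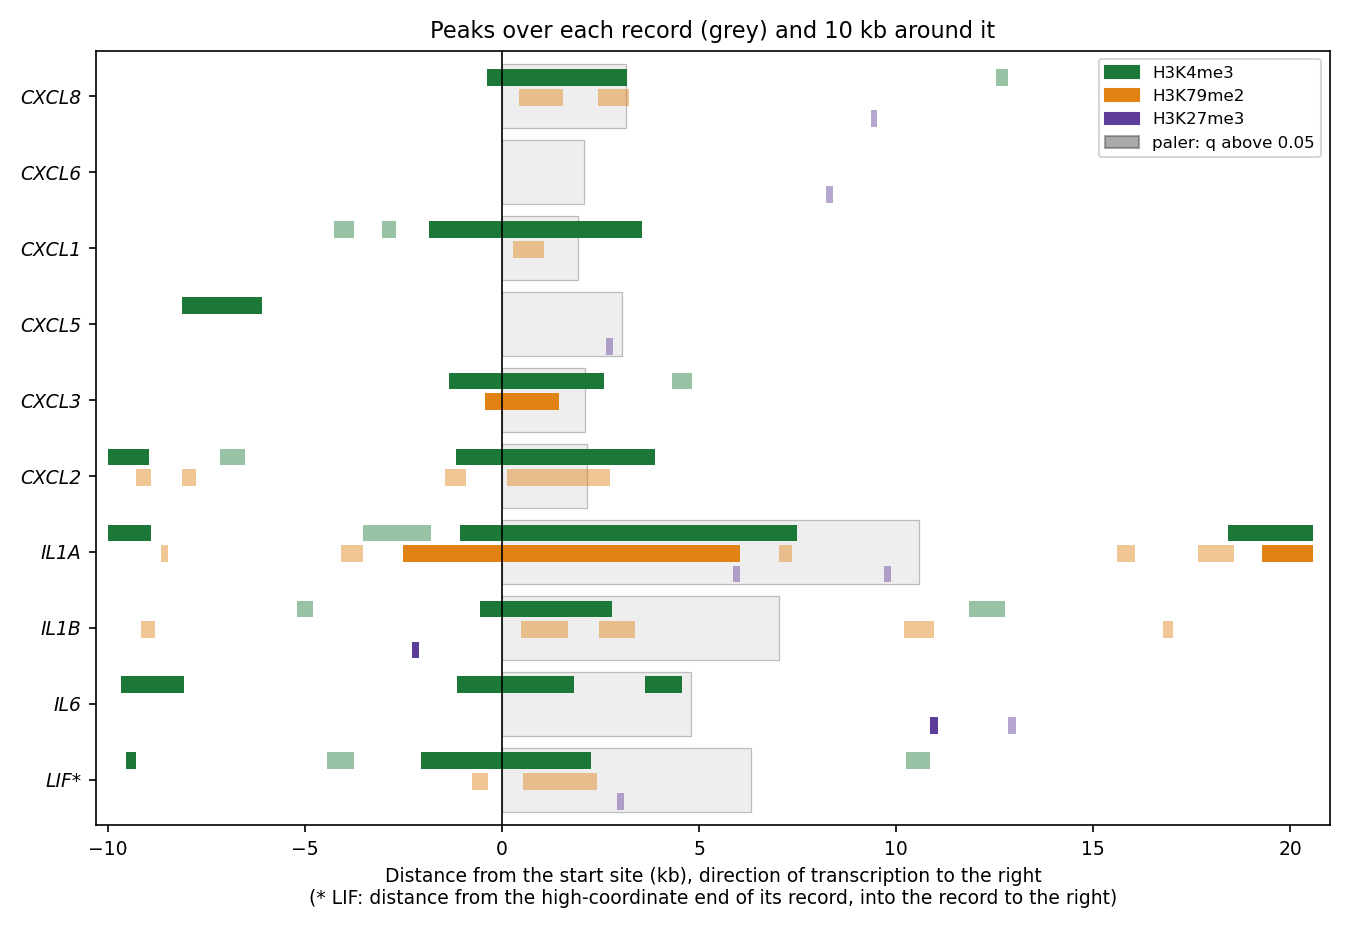
The x axis is the distance in kb from the start site, with transcription to the right, grey boxes are the gene records, and bars are peaks of the 3 marks clipped at 10 kb from the record, paler where q is above 0.05 (very narrow peaks are widened to stay visible). LIF is drawn from the high-coordinate end of its record; H3K4me3 straddles the start or end line in 8 rows, and CXCL6 and CXCL5 have no bar there.

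At each of the 7 called genes with a start site in the promoter table, more H3K4me3 bases lay in the 5 kb downstream of the start than in the 5 kb upstream. The smallest contrast was CXCL1, with 3559 against 2720 bp, and CXCL8 had 3177 against 378 bp. Neither mark was compared in this way over all called genes, so the skew is not shown to be particular to these. H3K79me2 also had more bases downstream at the 6 called genes with a start site, with 0 bp upstream at CXCL1, CXCL8 and IL1B. Its call counts only bases inside the record, so an excess downstream is partly built into that choice of genes. H3K79me2 crossed the start without a break at CXCL3 and IL1A, covering 100% of their promoter windows and 0% of those of the other genes with an entry. Those were also the genes with an H3K79me2 peak of q 0.05 or below over the record.

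H3K27me3 near the 10 genes was sparse, at a level near the background. Within 10 kb of the records the list held 9 peaks. They were of 165 to 193 bp, against a median of 213 bp in the whole list, and of 1.79- to 3.93-fold. They lay at 7 of the 10 genes, and 2 of them had q of 0.05 or below. Of all protein-coding genes 74.2%, and of those in the same length range 61.8%, had at least 1 such peak, so this share was near the background. The median covered length was 166 bp among the 10 genes and 181 bp in the length range. The nearest H3K27me3 domain (a run of peaks with no gap above 3000 bp, 10 kb or longer and 25% or more in peaks) was also sought. It was 737 kb from IL6, 829 kb from IL1A, 884 kb from IL1B and 1660 kb from LIF, and at least 3790 kb from the CXCL genes. Distances of other genes were not measured, so whether these are unusual is not known. CXCL5 and CXCL6 thus had no call for any mark, a state shared by 25.9% of all genes.

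The active marks were set against the 9857 genes called for both. Their median fold was 17 for H3K4me3 and 3.5 for H3K79me2, against 15.2 and 2.4 over the 7 of the 10 genes called for both. In H3K79me2 6 of these 7 were under the median, and in H3K4me3 also 6. Short records alone had a median of 3.39 for H3K79me2 (446 genes with records of at most 3148 bp). Among all genes called for H3K4me3, 62.7% had H3K79me2 from peaks with q of 0.05 or below, and 56.2% of those in the length range did, beside 2 of the 8 here. With 10 genes chosen by name and 1 library per mark no test was made of this difference.

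**Figure D4:**
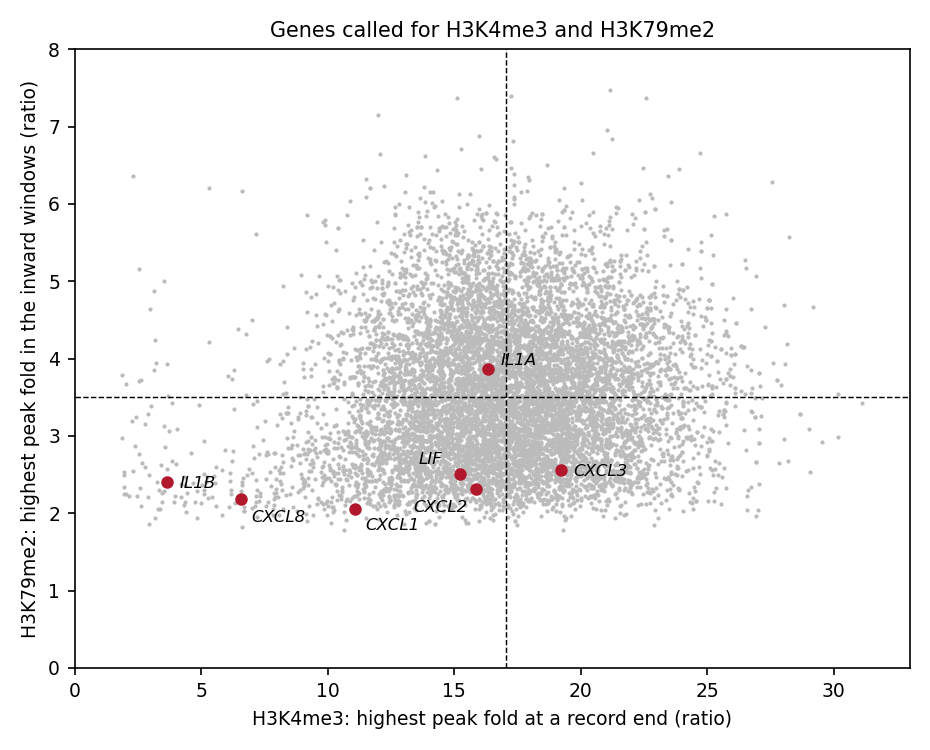
Each grey dot is a protein-coding gene called for both H3K4me3 and H3K79me2, with the highest fold at a record end on the x axis and the highest fold in the inward windows on the y axis, and dashed lines are the medians of 17 and 3.5. The red points show CXCL3 right of the H3K4me3 median but at 2.56-fold H3K79me2, and IL1A as the one red point above the H3K79me2 median.

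Other genes of the same pathways were counted by list. Signalling genes were marked nearly throughout. Of 19 genes of NF-κB and cytokine signalling, 19 had H3K4me3 and 18 had H3K79me2, 15 of them from peaks with q of 0.05 or below, and 0 had H3K27me3, against 67.9%, 50.9% and 9.1% of all genes. H3K4me3 was led by CEBPB (31.1-fold) and CEBPD (25.9-fold), which encode C/EBP factors, the kinase gene JAK1 (23.5-fold) and the IκB kinase gene IKBKB (21.8-fold). In H3K79me2 the NF-κB subunit gene NFKB1 (3.87-fold), CHUK (3.61-fold), REL (3.58-fold) and IKBKB (3.22-fold) had 100% of an inward window covered. SOCS3, a feedback inhibitor of gp130 signalling, was the member without H3K79me2, with 15.3% covered. RELA, the gene of the main activating subunit, had H3K4me3 of 18.4-fold and H3K79me2 of 4.63-fold, and NFKBIA, an inhibitor and NF-κB target, 21.4- and 4.02-fold (both named after their values were seen).

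Of 10 receptor genes, 4 had H3K4me3, against 67.9% of all genes. The same 4 had H3K79me2, all from peaks with q of 0.05 or below, against 50.9% of all genes called from any peak and 43.3% from such peaks, so the H3K79me2 count was near the background. These were IL1RAP (12.8- and 3.77-fold), the accessory chain of the interleukin-1 receptor, OSMR (14.9- and 4.12-fold), the gp130 gene IL6ST (17.9- and 3.71-fold) and IL6R (15.9- and 2.78-fold). CXCR1, CXCR2, ACKR1, IL1R1, IL1R2 and LIFR had no call for any mark at a record end. A start site inside a record is missed by this rule. The receptors of the CXCL proteins were therefore without calls in the line whose CXCL1, CXCL2, CXCL3 and CXCL8 records carried H3K4me3.

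Of 11 other CXC chemokine genes, 3 had H3K4me3, 27.3%, and 0 had H3K79me2 or H3K27me3, against 67.9%, 50.9% and 9.1% of all genes. With 11 genes, 0 with H3K27me3 is near that background. Those with H3K4me3 were CXCL16 (17.3-fold), CXCL14 (6.51-fold) and PF4 (4.75-fold). The interferon-induced genes CXCL9, CXCL10 and CXCL11 had none of the calls. Of 9 other genes of the interleukin-1 family, IL18 had both active marks (11.4- and 4.5-fold) and the other 8, among them the receptor antagonist gene IL1RN and IL33, had none, so that each active mark was at 11.1% of the list. Of 6 other genes of the interleukin-6 family, CLCF1 (17.5-fold), CTF1 (12.2-fold) and IL11 (11.4-fold) had H3K4me3, and CLCF1 (2.5-fold) and CNTF (2.66-fold) had H3K79me2, shares of 50% and 33.3% against the same 67.9% and 50.9% of all genes. From peaks with q of 0.05 or below, 1 of the 6 had H3K79me2, against 43.3% of all genes. CNTF had 0% of its H3K4me3 windows covered.

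Of 9 other cytokine genes known from epithelium, 6 had H3K4me3 (66.7%) and 5 had H3K79me2 (55.6%), 3 of these from peaks with q of 0.05 or below. Both shares were close to those of all genes, 67.9% and 50.9%. CCL20 (15.6-fold), CSF3 (7.18-fold), IL7 (13.8-fold) and IL15 (15.6-fold) led in H3K4me3 by covered share, and CCL20 (2.82-fold), CSF1 (2.72-fold), CSF3 (2.14-fold) and IL7 (3.5-fold) in H3K79me2. CSF2 had H3K4me3 of 2.24-fold only, and CCL2, TNF and TSLP had no call. The EGFR ligand genes AREG, EREG, EPGN and BTC lie beyond MTHFD2L on chromosome 4. Of 7 EGFR ligand genes, 6 had H3K4me3 (85.7%) and 5 had H3K79me2 (71.4%), against the same 67.9% and 50.9% of all genes. All 5 H3K79me2 calls came from peaks with q of 0.05 or below. Such calls were at 2 of the 10 chemokine and interleukin genes, 43.3% of all genes and 34% in the length range of the 10. EREG (8.63- and 2.98-fold), AREG (15.5- and 2.85-fold) and EPGN (13- and 3.42-fold) had both marks, and BTC had H3K4me3 (16.2-fold). The difference between these groups was not tested.

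The gene with the most similar covered shares was sought for each of the 10, over 6 shares (the record and the flanks of 10 kb, for 3 marks, in 1 library each). CXCL2 was closest to TNFRSF12A, a receptor gene of the TNF superfamily, at a Euclidean distance of 2.94 percentage points, and CXCL3 to the frizzled receptor gene FZD8 at 3.37. The metallothionein gene MT1X was closest to CXCL8 at 4.18, and ADIRF to CXCL1 at 11.1. IL1A was closest to NUDT22 at 7.09, IL1B to ABHD11 at 3.68, IL6 to DNAJB5 at 4.41 and LIF to LIN7B at 4.31. CXCL5 was closest to TNF at 0.875, but 1518 genes were within 10 points of it, and 4082 genes were within 10 points of CXCL6, whose pattern is close to an absence of marks. CXCL1 had 0 genes within 10 points.

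As a check of the label, all 6 basal mammary epithelial markers (KRT5, KRT14, KRT17, ITGB4, CDH3 and SFN) had both active marks. Of all genes 67.9% had H3K4me3 and 50.9% had H3K79me2. Of 3 blood cell markers, CD14 had H3K4me3 and 0 had H3K79me2, of 3 endothelial markers KDR had H3K4me3 and PECAM1 had H3K79me2, and of 3 fibroblast markers 2 had H3K4me3 and 0 had H3K79me2. PTPRC, CD3E, CDH5 and COL3A1 had no call. The fibroblast share for H3K4me3, 66.7%, was near that of all genes, and lists this short are a weak check. The lists held 67904 H3K4me3, 112870 H3K79me2 and 393324 H3K27me3 peaks, of which 48.9%, 14.3% and 26.3% had q of 0.05 or below.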

How the data were processed

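Peak lists of H3K4me3, H3K27me3 and H3K79me2 from 1 MCF10A library each were used. The submitters' processing notes name the tools Bowtie2 2.3.1 and MACS2 2.1.1 and the build hg38. A p of 0.05 stands in the names of all peaks, and the word broad in those of H3K4me3 and H3K79me2. The use of the input as control and the handling of duplicates and of reads with several matches are not given in the sources used here. Each peak's fold, as deposited by the authors, is its ratio to the background of the caller, used within its own list only. The deposited −log10 p and −log10 q are the caller's values. The deposited integer score and the summit offset were not used. Peak lists leave the depth unknown, so counting intervals are not given, and no list pools samples.

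Records, start sites and promoter windows came from RefSeq tables of GRCh38.p14. The gene table has 59792 genes, and start sites matched 9 of the 10 genes (LIF has none here). Covered bases were counted in Python 3.11.15 with numpy 2.4.6 and pandas 2.3.3, checked on simulated intervals. Promoters were aligned with Biopython 1.88. The genes and lists were chosen with earlier results of these data known. Named were all 10 genes, protein-coding records within 200 kb of the chemokine cluster, the gene with the nearest pattern, and up to 4 marked members per list by covered share and then fold, with exceptions where there were 5 or fewer. The INKILN, CXCL1P1, antisense and other non-coding records were named after their values were seen. Alternatives were peak thresholds, covered shares, window sizes, start sites only, joined peaks and other flanks. One blood cell marker of the design is not reported here.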

Additional observations from a re-analysis of the deposited data

How the results depend on the processing

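The 8 genes called for H3K4me3 stayed between 7 and 8 in every alternative run, while the share of all genes ran from 62.4% to 71.5%. At the start site only, the 7 were of 9 genes tested, against 68.7% of all. H3K79me2, called at 7, fell to 2 with q of 0.05 or below, to 4 at 50% covered, near the 45.3% of all genes at that setting, and to 0 with −log10 q of 5 or more and 0 with a fold of 5 or more. At the start site only, where LIF was not tested, it was called at 6 of 9 genes, against 53.1% of all; the other settings gave 7. H3K27me3 stayed at 0 except for 2 genes, CXCL5 and IL1A, with 1 bp covered, near the 24.7% of all genes. Over the CXCL cluster H3K4me3 covered 24665, 20651 and 18984 bp with peaks of q 0.05 or below, −log10 q of 5 or more and fold of 5 or more. In the same order H3K79me2 covered 1893, 0 and 0 bp and H3K27me3 0, 0 and 0 bp. With 5000 bp around the records in place of 10 kb, 4 genes had an H3K27me3 peak in place of 7. With a flank wider than 10 kb, 8 genes had one. The share of all genes was not measured at these other flanks, so their counts cannot be set against a background. By construction, the limits on q and fold leave out peaks, those on the covered share move the threshold over the same peaks, and 5000 bp counts fewer bases. No paired analysis was possible because each mark has 1 library. Read depth is unknown, so an absent peak may be a limit of detection.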
